A study of Mus musculus with 8 samples.

Results

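RNA levels of 10 adipogenic and lipid storage genes were read in cardiac fibroblasts with and without a deletion of *Lmna*, which encodes lamin A/C. The genes were *Pparg*, *Cebpa*, *Cebpb*, *Cebpd*, *Dgat1*, *Dgat2*, *Fabp4*, *Plin2*, *Lpl* and *Cd36*, taken by symbol from the 18957 genes counted in each library. All 10 passed the filter on low counts. The libraries were 4 from WT and 4 from *Pdgfra-Cre:LmnaF/F* mice on a mixed C57BL/6 background, and the mice were 3 to 4 weeks old. Each library was made from cells sorted from dissociated ventricles as PDGFRA-positive, negative for hematopoietic lineage markers and alive. The WT mice were littermates with wild-type alleles only. The *Pdgfra-Cre:LmnaF/F* mice carried a Cre transgene under the *Pdgfra* locus of a bacterial artificial chromosome and 2 *Lmna* alleles with a floxed exon 2, so an effect of Cre alone and one of the deletion cannot be told apart. Cre under this locus is also known to act in a subset of cardiac myocytes, because the locus is active there during development. The labels do not say that each library came from a separate mouse, and p-values measure the spread between these libraries.

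Total counts lay between 2080555 and 12502949 per library, with WT replicate 2 the lowest, and levels are given as CPM, the counts scaled to a common library size by TMM. *Lmna* was at 274 to 483 CPM in the WT and at 90.4 to 130 CPM in the *Pdgfra-Cre:LmnaF/F* libraries, which fits the labels. Each of 8 fibroblast markers, *Pdgfra* and the type I collagen genes among them, had counts in every library, and their sum was 46944 to 54126 CPM in the WT and 40549 to 55904 CPM in the *Pdgfra-Cre:LmnaF/F* libraries. *Pdgfra-Cre:LmnaF/F* replicate 4 stood apart, with a summed level of 10 cardiac myocyte markers of 5941 CPM against 346 to 1098 CPM in the other 7 libraries. The groups also differed in their share of male mice, since 4 Y-linked genes summed to 143 to 273 CPM in WT replicates 1, 2 and 4 and in *Pdgfra-Cre:LmnaF/F* replicate 4, and to at most 1.96 CPM in the others.

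Fat cells arise when precursor cells, which in many tissues carry PDGFRA, switch on a cascade of transcription factors. C/EBPβ and C/EBPδ come first, and C/EBPα and PPARγ follow and keep each other on. The mature cell takes up fatty acids freed by lipoprotein lipase, carries them through CD36 and FABP4, joins them to glycerol with the DGAT enzymes and stores the triglyceride in droplets coated by perilipins. None of these proteins is found in fat cells alone. Cardiac capillaries use CD36 and FABP4 to pass fatty acids to the myocytes, and *Cebpb* and *Cebpd* also respond to stress and inflammation. The study also looked for fat cells in the hearts of these mice. The comparison here asks which of the genes differed in the fibroblasts themselves, at an age chosen to come before overt heart failure.

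*Dgat2*, which encodes an enzyme for the last step of triglyceride synthesis, had the largest difference between the genotypes among the 10 genes, with a fitted level 6.46 times as high in the *Pdgfra-Cre:LmnaF/F* as in the WT fibroblasts (95% interval 2.70 to 15.4). It was the only one of the 10 whose 4 *Pdgfra-Cre:LmnaF/F* values all lay on one side of the 4 WT values, and among all 13036 tested genes 8.03% did so. With the quasi-likelihood test of edgeR and Benjamini-Hochberg adjustment over all tested genes, 0 of the 10 genes passed an adjusted p of 0.05, where 0.407% of all tested genes passed. An unadjusted p under 0.05 was found for 2, *Dgat2* and *Cebpd*, and for 11.9% of all tested genes. DESeq2 called 1 of the 10, *Dgat2*, where it called 2.15% of the genes to which it gave an adjusted p, and limma-voom called 0 of the 10 and 0.967% of all tested genes. The log2 fold change was positive for 8 of the 10 genes and for 51.8% of all tested genes. The median log2 fold change was 0.42 for the 10 genes and 0.02 for all tested genes. For the 10 genes it was 0.20 without *Pdgfra-Cre:LmnaF/F* replicate 4 and 0.28 with limma-voom.

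**Figure D1:**
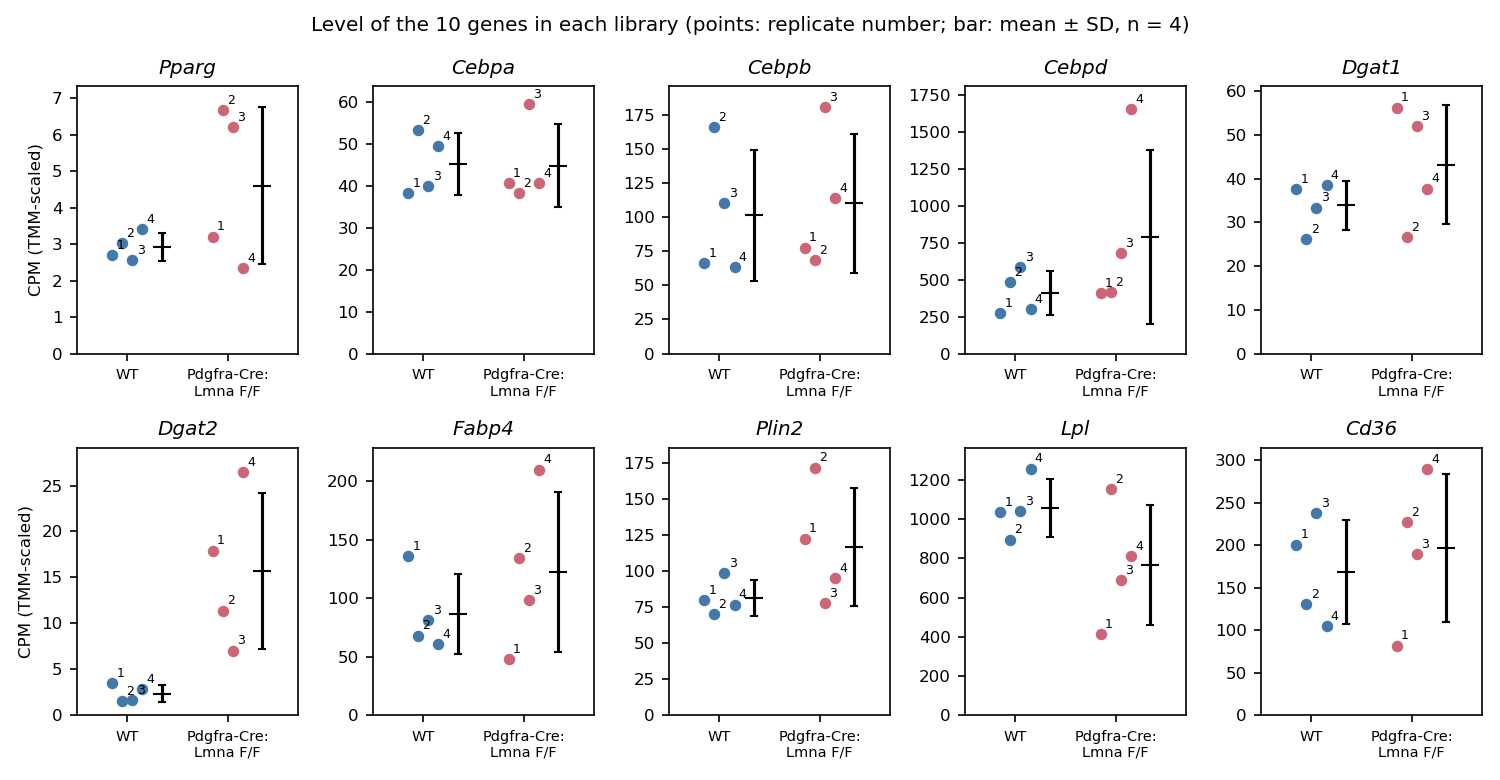
CPM of each of the 10 genes (vertical axes start at 0) in the WT (blue) and *Pdgfra-Cre:LmnaF/F* (red) libraries, with the replicate number beside each point and the mean ± SD (n = 4) as a black bar. The red points of *Dgat2* all lie above its blue points, and the groups overlap for the other 9 genes.

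**Figure D2:**
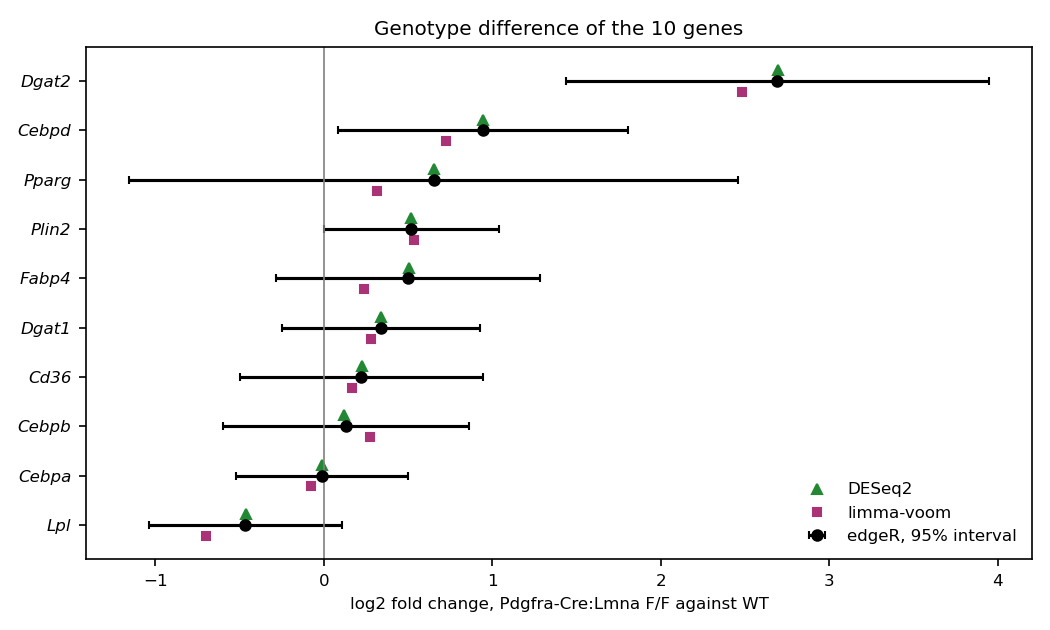
Log2 fold change of each gene (horizontal axis, *Pdgfra-Cre:LmnaF/F* against WT) from edgeR with its 95% interval (black), from DESeq2 (triangles) and from limma-voom (squares). The interval lies above 0 for *Dgat2* and *Cebpd*, and it includes 0 for the other 8 genes.

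Both enzymes that make triglyceride from diacylglycerol were among the genes. DGAT1 and DGAT2 share this reaction but not their protein family, and DGAT2 is known for work at the lipid droplet. *Dgat2* (ENSMUSG00000030747.5, mm10 chromosome 7 from 99153658 to 99182719, minus strand) had 3.46, 1.51, 1.60 and 2.80 CPM in WT replicates 1 to 4. It had 17.9, 11.4, 7.02 and 26.5 CPM in *Pdgfra-Cre:LmnaF/F* replicates 1 to 4. Each *Pdgfra-Cre:LmnaF/F* library was thus above the highest WT library, and replicate 3 was the nearest to it. In counts, *Dgat2* had 37, 3, 10 and 27 in the WT and 173, 109, 61 and 318 in the *Pdgfra-Cre:LmnaF/F* libraries. The 3 counts of WT replicate 2, the shallowest library, allow a level of 0.310 to 4.40 CPM (exact Poisson 95% interval, counting error only), which ends below the lowest *Pdgfra-Cre:LmnaF/F* value.

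*Dgat2* averaged 2.34 ± 0.948 CPM (SD, n = 4) in WT fibroblasts. Its average in *Pdgfra-Cre:LmnaF/F* fibroblasts was 15.7 ± 8.48 CPM (SD, n = 4). This gave a log2 fold change of 2.69 ± 0.59 (SE, 95% interval 1.44 to 3.95), rank 43 from the top of 13036 tested genes. Its edgeR adjusted p was 0.0709 and did not pass the threshold. The call depended on the setting, since *Dgat2* passed with DESeq2 (adjusted p = 0.00119), with no filter on low counts (adjusted p = 0.0215 by edgeR, 1.45% of all genes called) and with Y-linked expression as a covariate (adjusted p = 0.0314 by edgeR, 0.859% called). Without each library in turn, the log2 fold change of *Dgat2* lay between 2.32 and 2.94 and the edgeR adjusted p between 0.0874 and 0.194.

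Measures that differed between the libraries were set beside *Dgat2*. *Pdgfra-Cre:LmnaF/F* replicate 4, with the most cardiac myocyte RNA, also had the most *Dgat2*. The next highest *Dgat2* level was in *Pdgfra-Cre:LmnaF/F* replicate 1, which had the least cardiac myocyte RNA of the 8 libraries, 346 CPM. Without replicate 4 the log2 fold change of *Dgat2* was 2.32 (adjusted p = 0.194 by edgeR). The part of myocyte RNA in the difference was not tested. Among the libraries with Y-linked expression, *Dgat2* had a mean of 2.59 CPM in 3 WT libraries and 26.5 CPM in 1 *Pdgfra-Cre:LmnaF/F* library. Among those without it, *Dgat2* was at 1.60 CPM in 1 WT library and at a mean of 12.1 CPM in 3 *Pdgfra-Cre:LmnaF/F* libraries. The 1 *Pdgfra-Cre:LmnaF/F* library with Y-linked expression was replicate 4, the one with the most cardiac myocyte RNA, and each class held too few libraries for a test. A list of 26 genes that respond to tissue dissociation, summed to 4242 to 7624 CPM in the WT and to 10124 to 15535 CPM in the *Pdgfra-Cre:LmnaF/F* libraries. Of the 26, 3 were differentially expressed genes (DEGs, adjusted p under 0.05 by edgeR), against 0.407% of all tested genes. An unadjusted p under 0.05 with a higher level was found for 18, against 6.24%, and all *Pdgfra-Cre:LmnaF/F* values were above all WT values for 15, against 4.06%. Among the *Pdgfra-Cre:LmnaF/F* libraries, replicate 3 had the highest sum of this list and the lowest *Dgat2*, and the part of dissociation in the difference was not tested. Bulk RNA cannot tell more cells with *Dgat2* from more *Dgat2* RNA in each cell, and this holds for each gene described here.

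**Figure D3:**
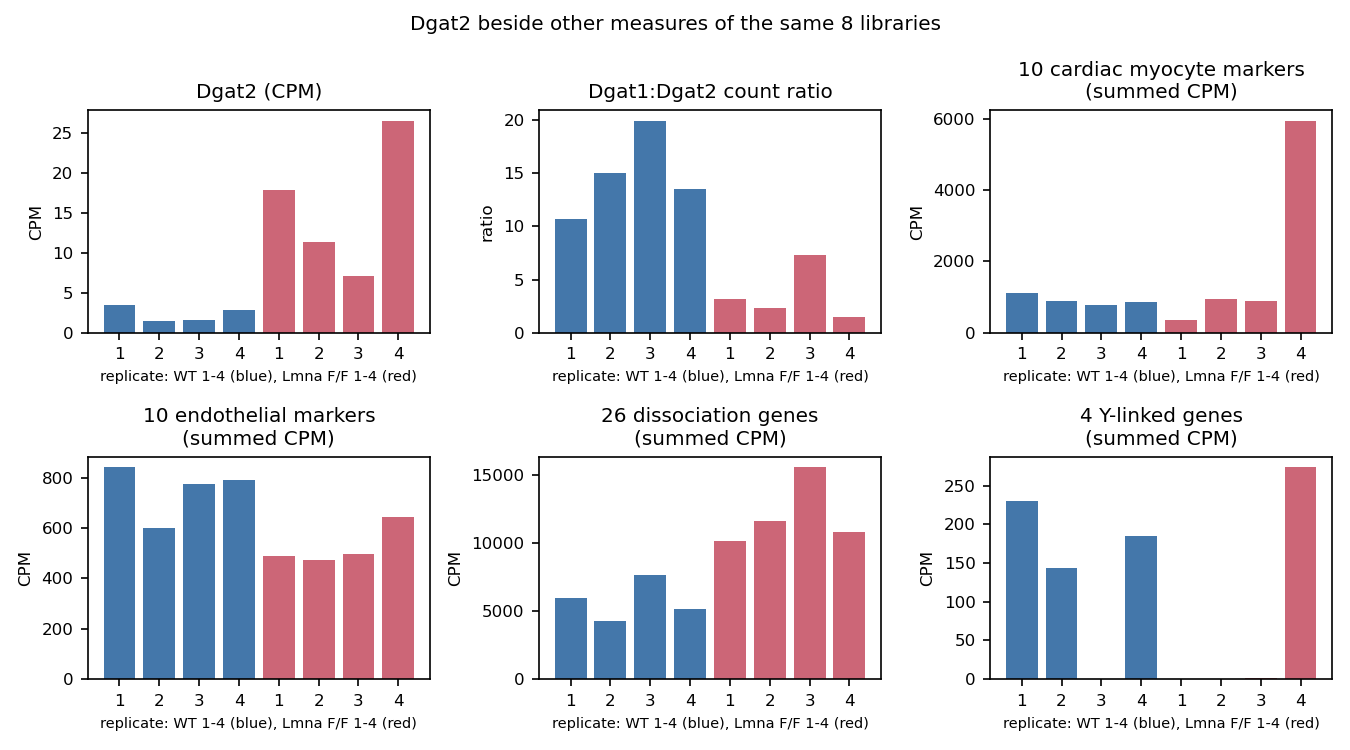
Measures of the same 8 libraries, WT replicates 1 to 4 in blue and *Pdgfra-Cre:LmnaF/F* replicates 1 to 4 in red. The panels show *Dgat2* in CPM, the ratio of *Dgat1* to *Dgat2* counts, and the summed CPM of 10 cardiac myocyte markers, 10 endothelial markers, 26 dissociation genes and 4 Y-linked genes. *Dgat2* was lower in every blue bar than in every red bar, while the myocyte markers stood out in 1 red bar, at 5941 CPM.

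*Dgat1* (ENSMUSG00000022555.12, chromosome 15 from 76502015 to 76511953, minus strand) differed far less than *Dgat2*. It had 37.6, 26.2, 33.4 and 38.5 CPM in the WT and 56.3, 26.6, 52.0 and 37.7 CPM in the *Pdgfra-Cre:LmnaF/F* libraries. Replicates 1 and 3 of the *Pdgfra-Cre:LmnaF/F* group were above all WT libraries, and replicates 2 and 4 were among them. *Dgat1* had a log2 fold change of 0.34 ± 0.28 (SE, 95% interval -0.25 to 0.93, adjusted p = 0.708 by edgeR). The interval leaves room for a 1.90-fold increase. The ratio of *Dgat1* to *Dgat2* within a library does not depend on the scaling for depth. There were 10.7, 15, 19.95 and 13.6 *Dgat1* counts for each *Dgat2* count in the WT (0.5 added to both) and 3.14, 2.33, 7.36 and 1.42 in the *Pdgfra-Cre:LmnaF/F* libraries. *Dgat1* counts thus exceeded *Dgat2* counts in all 8 libraries, by less in each *Pdgfra-Cre:LmnaF/F* library than in any WT library. The log2 ratio was lower by 2.29 in the *Pdgfra-Cre:LmnaF/F* group, 4.88-fold lower (exact permutation test, two-sided, p = 0.0286, the smallest p that 70 assignments can give). Adjusted over the 3 ratios tested, this p was 0.0857.

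The transcription factors of the cascade were read next. *Pparg* encodes PPARγ, the nuclear receptor that is required for fat cells to form. *Pparg* (ENSMUSG00000000440.12, chromosome 6 from 115360951 to 115490399, plus strand) was near the low end of what these libraries can measure, with 6 to 33 counts in the WT and 28 to 64 counts in the *Pdgfra-Cre:LmnaF/F* libraries. Its levels were 2.71, 3.02, 2.56 and 3.42 CPM in the WT. In the *Pdgfra-Cre:LmnaF/F* libraries they were 3.21, 6.67, 6.22 and 2.33 CPM, so that replicates 2 and 3 were above all WT libraries and replicate 4 was below them. For *Pparg* the log2 fold change was 0.65 ± 0.85 (SE, adjusted p = 0.841 by edgeR). Its 95% interval, from a level 0.449 times to one 5.50 times that of the WT, was the widest of the 10 genes on the log2 scale.

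C/EBP proteins are known to bind the promoter of the adipocyte form of *Pparg*, and CREB is known to act on *Cebpb* early in fat cell formation. Promoter sequences from RefSeq (GRCm38.p6) were at hand for 5 of the 10 genes in 7 windows, *Pparg* having 3 start sites, and each window was read over the 250 bases before the start site. They are shown for the start site of *Pparg* farthest downstream (chr6:115421816-115422065, plus strand) and for *Cebpb* (chr2:167688665-167688914, plus strand), because of these known links. Capitals mark matches on either strand to TTGCNNAA, a form of the C/EBP motif, in *Pparg*, and to TGACG, the core bound by CREB, in *Cebpb*.
Pparg: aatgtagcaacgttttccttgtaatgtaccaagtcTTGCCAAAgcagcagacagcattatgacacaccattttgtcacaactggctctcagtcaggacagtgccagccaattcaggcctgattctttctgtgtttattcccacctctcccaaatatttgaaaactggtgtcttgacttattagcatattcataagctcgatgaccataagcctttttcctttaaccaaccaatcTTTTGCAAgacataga
Cebpb: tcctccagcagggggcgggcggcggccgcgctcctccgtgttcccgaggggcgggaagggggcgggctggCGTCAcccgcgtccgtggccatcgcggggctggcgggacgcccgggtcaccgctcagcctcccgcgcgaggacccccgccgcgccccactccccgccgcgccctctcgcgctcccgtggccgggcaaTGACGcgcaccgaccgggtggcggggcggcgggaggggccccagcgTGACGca
The *Pparg* window held 2 matches, which began 215 and 16 bases before the start, and TTGCNNAA occurred in 9.56% of the 32851 windows of this length in the table. The *Cebpb* window held 3 matches to TGACG, which occurred in 17.8% of all windows. Of the 7 windows of these genes, each motif matched in 1 only, the window shown. A match describes letters and not a bound site, and counts per gene do not tell the start sites of *Pparg* apart.

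C/EBPα works with PPARγ late in the cascade. *Cebpa* (ENSMUSG00000034957.10, chromosome 7 from 35119293 to 35121928, plus strand) had 38.2, 53.3, 39.9 and 49.5 CPM in the WT and 40.7, 38.2, 59.5 and 40.7 CPM in the *Pdgfra-Cre:LmnaF/F* libraries. The groups overlapped, with *Pdgfra-Cre:LmnaF/F* replicate 3 above all WT libraries, and the log2 fold change of *Cebpa* was -0.01 ± 0.24 (SE, 95% interval -0.52 to 0.50, adjusted p = 0.992 by edgeR). These bounds correspond to levels from 0.696 to 1.41 times that of the WT.

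C/EBPβ and C/EBPδ open the cascade and are induced early. *Cebpb* (ENSMUSG00000056501.3, chromosome 2 from 167688915 to 167690418, plus strand) had 66.2, 166, 110 and 63.2 CPM in the WT and 77.8, 68.3, 181 and 114 CPM in the *Pdgfra-Cre:LmnaF/F* libraries. Its spread within each genotype was wide and alike in both, and the log2 fold change of *Cebpb* was 0.13 ± 0.34 (SE, 95% interval -0.60 to 0.86, adjusted p = 0.931 by edgeR). *Cebpd* (ENSMUSG00000071637.5, chromosome 16 from 15887286 to 15891031, plus strand) had 272, 482, 584 and 302 CPM in the WT and 408, 415, 679 and 1654 CPM in the *Pdgfra-Cre:LmnaF/F* libraries. The groups overlapped, and replicate 4 alone was far above the rest. For *Cebpd* the log2 fold change was 0.95 ± 0.40 (SE, 95% interval 0.08 to 1.81), with an unadjusted p of 0.0335 and an adjusted p of 0.372 from edgeR. Without *Pdgfra-Cre:LmnaF/F* replicate 4, the library with the most cardiac myocyte RNA, it was 0.29 (adjusted p = 0.790 by edgeR). The part of that library's other cells in the level of *Cebpd* was not tested. *Cebpa*, *Cebpb*, *Cebpd* and *Pparg* each overlap a gene on the opposite strand in the annotation. The libraries kept strand, but the sources used here do not give the strand setting of the counting.

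Lipoprotein lipase frees fatty acids from circulating triglyceride. *Lpl* (ENSMUSG00000015568.16, chromosome 8 from 68880491 to 68907448, plus strand) was the most counted of the 10 genes in the WT, at 1035, 896, 1042 and 1259 CPM. It had 414, 1152, 688 and 812 CPM in the *Pdgfra-Cre:LmnaF/F* libraries. All of the latter but replicate 2 were below the lowest WT library. The log2 fold change of *Lpl* was -0.47 ± 0.27 (SE, 95% interval -1.04 to 0.11, adjusted p = 0.542 by edgeR), and it did not pass the test. *Lmf1*, whose product the lipase needs to mature, was also lower in the *Pdgfra-Cre:LmnaF/F* libraries, at 16.35 to 21.3 CPM against 35.1 to 51.8 CPM in the WT. Its groups did not overlap, and its log2 fold change was -1.01 ± 0.26 (SE, adjusted p = 0.127 by edgeR), which passed with DESeq2 (adjusted p = 0.0327).

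CD36 carries fatty acids into cells, and FABP4 binds them in the cytosol. *Cd36* (ENSMUSG00000002944.15, chromosome 5 from 17781690 to 17888801, minus strand) had 201, 130, 238 and 105 CPM in the WT and 81.8, 227, 189 and 290 CPM in the *Pdgfra-Cre:LmnaF/F* libraries. Its highest and lowest values were both in the *Pdgfra-Cre:LmnaF/F* group. *Cd36* had a log2 fold change of 0.22 ± 0.34 (SE, 95% interval -0.50 to 0.94, adjusted p = 0.866 by edgeR). *Fabp4* (ENSMUSG00000062515.3, chromosome 3 from 10204088 to 10208576, minus strand) had 136, 67.9, 81.0 and 60.5 CPM in the WT and 47.7, 134, 98.1 and 210 CPM in the *Pdgfra-Cre:LmnaF/F* libraries. Here too the *Pdgfra-Cre:LmnaF/F* group held both extremes, replicate 1 the lowest and replicate 4 the highest. The log2 fold change of *Fabp4* was 0.50 ± 0.37 (SE, 95% interval -0.29 to 1.28, adjusted p = 0.664 by edgeR). Without replicate 4 these log2 fold changes were 0.10 for *Fabp4* and -0.03 for *Cd36*.

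*Fabp4* and *Cd36* went up and down together from library to library. Over the 8 libraries, the log2 CPM values of the pair had a Pearson r of 0.885 (exact permutation p = 0.00367) and a Spearman rho of 0.833 (exact permutation p = 0.0154). Of the 45 pairs among the 10 genes, 0 passed Benjamini-Hochberg adjustment, and the adjusted values of this pair were 0.165 and 0.346. Without the 2 libraries farthest from the median of *Fabp4*, r was 0.754, and with each genotype centered on its own mean it was 0.892. Both genes are also made by capillary endothelium, whose cells the PDGFRA sort was meant to remove. They were set against 10 endothelial markers, which summed to 599 to 841 CPM in the WT and to 474 to 645 CPM in the *Pdgfra-Cre:LmnaF/F* libraries. *Tek* alone was the largest part of each sum, at 377 to 543 CPM in the WT and 287 to 342 CPM in the *Pdgfra-Cre:LmnaF/F* libraries. The sums, and ratios to them, thus rest mostly on this 1 gene. *Pecam1*, *Cdh5* and the other 8 markers had counts in every library, and log2 fold changes were negative for 8 of the 10, with 0 called. Counts of *Fabp4* for each endothelial marker count were 0.162, 0.114, 0.105 and 0.0767 in the WT and 0.0978, 0.283, 0.197 and 0.325 in the *Pdgfra-Cre:LmnaF/F* libraries. The log2 of this ratio was higher by 0.90 in the latter (exact permutation test, two-sided, p = 0.114), and that of *Cd36* by 0.67 (exact permutation test, two-sided, p = 0.171). The groups overlapped for both ratios, and neither difference passed the test. The sort on hematopoietic lineage markers and PDGFRA was meant to remove macrophages, another source of both genes. Even so, 10 macrophage markers summed to 58.3 to 206 CPM in the other 7 libraries and to 534 CPM in *Pdgfra-Cre:LmnaF/F* replicate 4.

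Perilipin 2 coats lipid droplets in most cells that hold them. *Plin2* (ENSMUSG00000028494.12, chromosome 4 from 86648386 to 86670060, minus strand) had 80.0, 69.9, 98.6 and 76.8 CPM in the WT and 123, 172, 77.7 and 95.1 CPM in the *Pdgfra-Cre:LmnaF/F* libraries. Replicates 1 and 2 of the latter were above all WT libraries and replicates 3 and 4 were within their range. *Plin2* had a log2 fold change of 0.52 ± 0.24 (SE, adjusted p = 0.421 by edgeR), with a 95% interval of -0.0018 to 1.04. Without *Pdgfra-Cre:LmnaF/F* replicate 2 it was 0.27 (adjusted p = 0.741 by edgeR). *Angptl4*, which encodes an inhibitor of lipoprotein lipase, was likewise highest in *Pdgfra-Cre:LmnaF/F* replicates 1 and 2, at 127 and 273 CPM, but it was lowest in replicates 3 and 4, at 17.6 and 6.17 CPM.

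Levels of different genes were compared per length, as RPKM, which is CPM divided by the kilobases of exon of the gene. The length was the union of exons over all annotated transcripts. This was 4489 bp for *Fabp4*, the whole span of the gene, and 10478 bp for *Lpl*. A gene whose main transcript is shorter than this union would read too low, so the order holds for this length only. In the WT the order of the means was *Cebpd*, *Lpl*, *Cebpb*, *Cd36*, *Plin2*, *Fabp4*, *Cebpa*, *Dgat1*, *Pparg* and *Dgat2*. The level was 110 ± 39.6 RPKM (SD, n = 4) for *Cebpd* and 101 ± 14.3 RPKM (SD, n = 4) for *Lpl*, and these did not differ beyond their spread. *Dgat1* was at 11.1 ± 1.84 RPKM (SD, n = 4), *Pparg* at 0.991 ± 0.129 RPKM (SD, n = 4) and *Dgat2* at 0.759 ± 0.307 RPKM (SD, n = 4). Neighbors in this order overlapped except *Cd36* over *Plin2*, *Cebpa* over *Dgat1* and *Dgat1* over *Pparg*. In the *Pdgfra-Cre:LmnaF/F* libraries *Cebpb* was before *Lpl* and *Dgat2* before *Pparg*. *Cebpb* and *Lpl* did not differ there beyond their spread, at 73.3 ± 33.9 and 73.1 ± 29.2 RPKM (SD, n = 4). There *Dgat2* was at 5.09 ± 2.75 RPKM (SD, n = 4) and *Pparg* at 1.56 ± 0.731 RPKM (SD, n = 4), and the lowest *Dgat2* value, 2.28 RPKM, was just above the highest *Pparg* value, 2.26 RPKM.

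**Figure D4:**
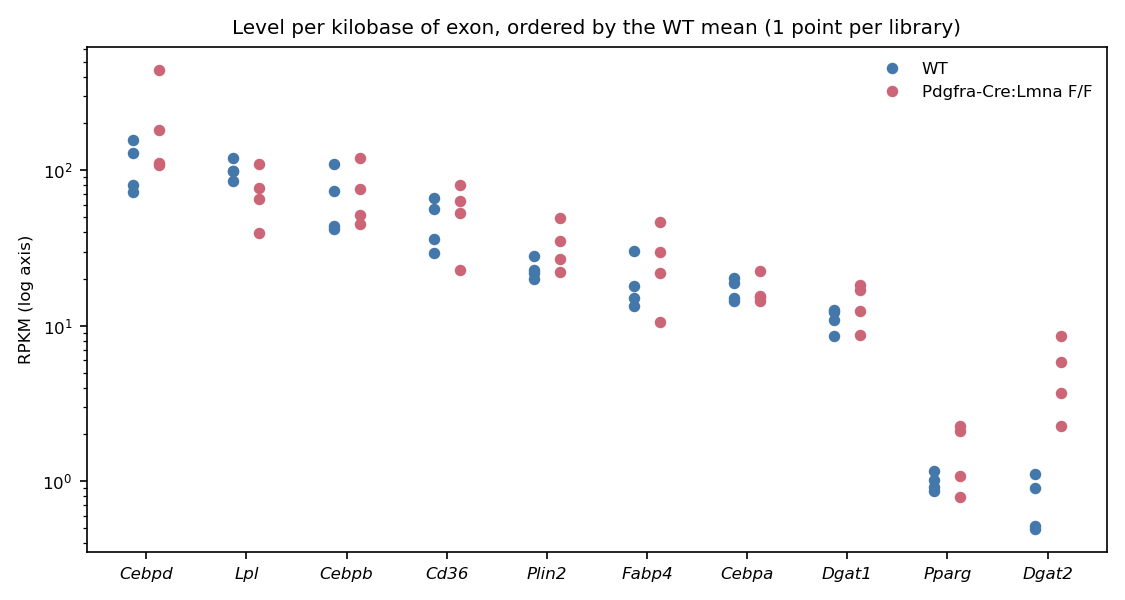
RPKM of the 10 genes on a log axis, ordered by their WT mean, with 1 point per WT (blue) and *Pdgfra-Cre:LmnaF/F* (red) library. *Pparg* and *Dgat2* are the lowest in the WT, with means of 0.991 and 0.759 RPKM, and *Dgat2* is above *Pparg* in each *Pdgfra-Cre:LmnaF/F* library.

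For each of the 10 genes, the tested genes with the most similar pattern, up to 3 each, were found by Pearson r of log2 CPM over the 8 libraries. These libraries differ in genotype and depth. With 13036 genes to choose from, high values of r were found for every gene, and they are given as a description. For *Dgat2* these were *Fbxl6* and *Coq10a*, with r of 0.967 and 0.953, and for *Cebpd* *Xdh*, *Hist1h1e* and *Mrpl41*, with r of 0.975, 0.966 and 0.965. *Xdh*, which encodes xanthine dehydrogenase, was at 916 CPM in *Pdgfra-Cre:LmnaF/F* replicate 4 and at 230 to 446 CPM in the other libraries, and so had the same high library as *Cebpd*. The nearest gene of *Fabp4* was *4933434E20Rik* (r = 0.975), which was also near *Cd36* (r = 0.93), after *Grk3* (r = 0.965) and *Atraid* (r = 0.956). *Fabp4* was followed most closely after that by *Rbm20* (r = 0.938), a splicing factor gene of cardiac myocytes with 60.1 CPM in *Pdgfra-Cre:LmnaF/F* replicate 4, and *Nr2f2* (r = 0.936). For *Pparg* the genes were *Ccdc90b*, *Nop16* and *Lactb* (r from 0.96 to 0.973), and for *Lpl* *Fam49a*, *Gemin6* and *Lnx2* (r from 0.94 to 0.963). They were *Ankrd52* and *Tcf12* for *Cebpa* (r of 0.933 and 0.92), *Cpsf6*, *Tmppe* and *Paqr3* for *Cebpb* (r from 0.938 to 0.967), *Zbtb37*, *Polr1a* and *Atg7* for *Dgat1* (r from 0.911 to 0.944) and *Rhot1*, *Il13ra1* and *Grcc10* for *Plin2* (r from 0.944 to 0.952).

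Around the 10 genes, 167 other genes of fat cell formation and lipid handling were listed in 10 groups, and 145 of them were tested. Of the 167, *Adipoq*, *Cideb* and *Spart* were not analysed here. One DEG was among them, *Egr2*, so that 1 of 145 was called where 0.407% of all tested genes were. *Egr2* encodes a zinc finger factor that promotes fat cell formation and is an immediate-early gene, like many of the 26 dissociation genes. It rose from 24.4, 11.1, 33.4 and 14.2 CPM in the WT to 72.4, 117, 264 and 79.2 CPM in the *Pdgfra-Cre:LmnaF/F* libraries (log2 fold change 2.65 ± 0.43, SE, adjusted p = 0.0202 by edgeR). Replicate 3 was highest both in *Egr2* and in the sum of the dissociation genes, whose part in the rise was not tested. *Egr2* did not pass when WT replicate 4 was left out, and it passed without each other library in turn. Unadjusted p-values under 0.05 were found for 11 genes with a higher and 14 with a lower level in the *Pdgfra-Cre:LmnaF/F* fibroblasts, and for 6.24% and 5.65% of all tested genes. The median log2 fold change over the 145 genes was -0.0065.

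Other genes of triglyceride synthesis, most of them enzymes before DGAT, were set beside *Dgat2*. Of 12 tested, 0 were called, 7 had a positive log2 fold change, and the median was 0.15. *Agpat1*, an acyltransferase of this pathway, was at 51.9 to 118 CPM in the WT and at 30.9 to 68.7 CPM in the *Pdgfra-Cre:LmnaF/F* libraries, with a log2 fold change of -1.06 ± 0.30 (SE, adjusted p = 0.166 by edgeR, DESeq2 adjusted p = 0.0496). *Lpin3*, a phosphatidate phosphatase, had a log2 fold change of -0.57 (adjusted p = 0.459 by edgeR). Of 14 genes of fatty acid synthesis 0 were called, 9 had a negative log2 fold change, and all lay between -0.38 and 0.71. *Acacb*, an acetyl-CoA carboxylase, and *Elovl5*, an elongase, had the lowest p in this list, with log2 fold changes of 0.71 and -0.31.

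Among 20 genes of fatty acid oxidation, 0 were called, 12 had a positive log2 fold change, and 3 had groups that did not overlap, all higher in the *Pdgfra-Cre:LmnaF/F* libraries, against 4.06% of all tested genes. *Acot1*, an acyl-CoA thioesterase, had 8.13 to 11.4 CPM in the WT and 11.8, 16.3, 47.0 and 114 CPM in the *Pdgfra-Cre:LmnaF/F* replicates 1 to 4. Its log2 fold change was 2.33 ± 0.57 (SE, adjusted p = 0.112 by edgeR, DESeq2 adjusted p = 0.0048). *Pdk4*, the kinase that holds back glucose oxidation, was at 7.67 to 19.6 CPM in the WT and at 7.96, 12.6, 49.9 and 159 CPM in the *Pdgfra-Cre:LmnaF/F* libraries, with a log2 fold change of 2.18 (adjusted p = 0.219 by edgeR). With limma-voom the log2 fold changes were smaller, 1.48 for *Acot1* (adjusted p = 0.260) and 0.95 for *Pdk4* (adjusted p = 0.541). *Acot1* and *Pdk4* were highest in replicates 4 and 3, whereas *Dgat2* was highest in replicates 4 and 1. Replicate 4 was the library with the most cardiac myocyte RNA, whose part in these levels was not tested.

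Droplet proteins other than *Plin2* showed 0 called of 12, with 6 positive log2 fold changes and a median of -0.04. *Hsd17b11*, a droplet dehydrogenase, had a log2 fold change of 0.55 (adjusted p = 0.408 by edgeR) and *Lpcat1*, which remodels droplet phospholipid, one of -0.46 (adjusted p = 0.448 by edgeR). Of 10 lipolysis genes 0 were called. *Mgll*, the lipase for monoglyceride, was at 28.6 to 69.1 CPM in the *Pdgfra-Cre:LmnaF/F* libraries, below the 73.5 to 142 CPM of the WT, with a log2 fold change of -0.80 (adjusted p = 0.274 by edgeR). *G0s2*, whose product inhibits the lipase for triglyceride, was at 209 to 331 CPM in the WT. It was at 452, 494, 384 and 195 CPM in *Pdgfra-Cre:LmnaF/F* replicates 1 to 4, with a log2 fold change of 0.61 (adjusted p = 0.395 by edgeR), and replicate 4 was below all WT libraries. Of 17 genes of fatty acid uptake and activation 0 were called, with a median of 0.04. *Vldlr*, the receptor for very low density lipoprotein, was at 55.4 to 66.5 CPM in the WT and at 72.8 to 134 CPM in the *Pdgfra-Cre:LmnaF/F* libraries, and its log2 fold change was 0.67 (adjusted p = 0.241 by edgeR).

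**Figure D5:**
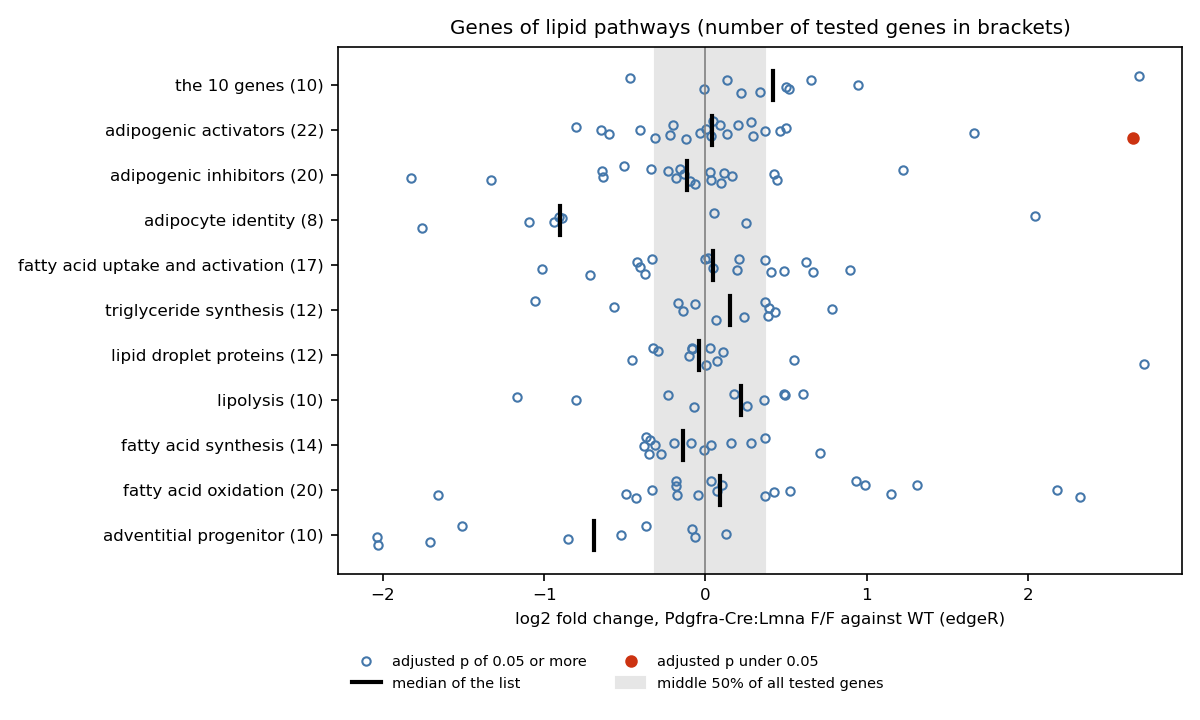
Log2 fold change (horizontal axis, edgeR) of each tested gene in the 10 genes and in 10 lists of related genes, with the list median as a black bar and the middle 50% of all tested genes shaded. Only *Egr2*, in the adipogenic activators, passed the threshold (filled point), and the median of the 10 genes was 0.42.

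Regulators of the fat cell program were split by their known role. Of 22 tested activators 1 was called, *Egr2*, and the median log2 fold change was 0.04. *Igf1*, a growth factor that favors fat cell formation, was at 302 to 340 CPM in the WT and at 218 CPM or less in each *Pdgfra-Cre:LmnaF/F* library. Its log2 fold change was -0.65 ± 0.17 (SE, adjusted p = 0.134 by edgeR, DESeq2 adjusted p = 0.00564). Of 20 tested inhibitors 0 were called, with a median of -0.12. *Sirt1*, a deacetylase that restrains PPARγ, was at 13.6 to 22.2 CPM in the WT and at 28.6 to 56.9 CPM in the *Pdgfra-Cre:LmnaF/F* libraries, a log2 fold change of 1.22 (adjusted p = 0.112 by edgeR, DESeq2 adjusted p = 0.0216). *Gli1*, a Hedgehog effector, had a log2 fold change of -1.83 (adjusted p = 0.167 by edgeR, DESeq2 adjusted p = 0.037).

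Genes of the adventitial fibroblast, a cell that can give rise to fat cells, were also read. Of 10 tested 0 were called, and 1 had a positive log2 fold change, as had 51.8% of all tested genes. The median was -0.69. *Pi16* was at 1107 to 1369 CPM in the WT and at 96.7 to 702 CPM in the *Pdgfra-Cre:LmnaF/F* libraries, with a log2 fold change of -1.51 (adjusted p = 0.134 by edgeR), and it passed with limma-voom (adjusted p = 0.0201) but not with DESeq2 (adjusted p = 0.125). *Clec11a* was at 9.63 to 52.7 CPM in the WT and at 6.10 to 6.67 CPM in the *Pdgfra-Cre:LmnaF/F* libraries, a log2 fold change of -2.03 (adjusted p = 0.104 by edgeR, DESeq2 adjusted p = 0.00892), and limma-voom gave -1.11 (adjusted p = 0.421). For 3 genes of the list all *Pdgfra-Cre:LmnaF/F* values were below all WT values, against 3.97% of all tested genes.

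Of 17 genes that define the mature fat cell, *Adipoq* not among them, 8 had enough counts to be tested, and 0 were called. *Plin1*, the perilipin of fat cells, had 0 to 14 counts in the WT and 0 to 26 counts in the *Pdgfra-Cre:LmnaF/F* libraries, and it was at 0 in WT replicate 3 and in *Pdgfra-Cre:LmnaF/F* replicates 3 and 4. Its highest count was in *Pdgfra-Cre:LmnaF/F* replicate 2 and its highest level, 4.53 CPM, in the shallower WT replicate 2. Of 4 other fat cell genes, *Pdgfra-Cre:LmnaF/F* replicate 2 had the most, with 54 counts of *Cidec*, 27 of *Lep*, 19 of *Retn* and 20 of *Adig*. In the other 7 libraries these had at most 10, 13, 12 and 8 counts. In contrast, *Cfd* and *Aqp7* both had 0 counts in replicate 2, with up to 19 counts of *Cfd* and up to 220 of *Aqp7* elsewhere. *Dgat2* was at 11.4 CPM in replicate 2, and the part of fat cells in its level was not tested. *Plin4*, a perilipin of fat and muscle, had 9.81, 5.03, 0.799 and 7.87 CPM in the WT and 10.8, 16.6, 14.7 and 56.6 CPM in the *Pdgfra-Cre:LmnaF/F* libraries. Its groups did not overlap, and its log2 fold change was 2.04 ± 0.66 (SE, adjusted p = 0.215 by edgeR). *Aqp7*, the glycerol channel of fat cells, had a log2 fold change of -1.76 (adjusted p = 0.520 by edgeR).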

How the data were processed

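The 8 libraries were ribosome-depleted, strand-specific RNA of sorted cells with a RIN above 8, read as 150 bp pairs. Alignment by the authors was to mm10, with HISAT2. They deposited featureCounts counts per GENCODE gene, whole numbers not scaled for depth. Their RUV normalization and DESeq2 test came after these counts. Versions are not given in the sources used here. Total counts were 2080555 to 12502949 per library, which limits genes such as *Pparg* and *Dgat2* by counting error.

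Groups and replicate numbers came from the sample titles. The main test was that of edgeR 4.0.16 in R 4.3.3 (TMM, filterByExpr, 13036 of 18957 genes kept, quasi-likelihood test with genotype as the only term, Benjamini-Hochberg adjustment), and DESeq2 1.42.0, limma 3.58.1 and Python 3.11.15 were used beside it. DEGs had an adjusted p under 0.05. Log2 CPM used a prior count of 2. RPKM used the union of exons in GENCODE M21. Single ratios were compared by exact permutation over 70 assignments. The edgeR, DESeq2 and limma fits were tested on simulated data. Alternatives were the other tests, other scaling, other filters, 1 RUVr factor, a replicate block and leaving out libraries. The genes and lists were chosen with earlier results of these data known. In the lists, the named genes were any DEG and the 2 tested genes with the lowest p, and genes outside this rule (*Angptl4*, *Cidec*, *Lep*, *Retn*, *Adig*, *Cfd*, *Plin1* and those under other observations) were chosen after their values were seen. Of the genes most similar in pattern to *Dgat2* and *Cebpa*, 1 each is not reported here.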

Additional observations from a re-analysis of the deposited data

Results flagged for a closer look

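In 88 groups of 4 libraries, the highest or lowest library was compared with the gap to its nearest neighbor by Dixon's test at 95%, which flags about 5% of groups by chance, and 11 values stood out, in 5 of the 8 libraries. Among the 10 genes this was *Cebpa* in *Pdgfra-Cre:LmnaF/F* replicate 3, at 59.5 CPM against 38.2 to 40.7 CPM in the other 3. In *Pdgfra-Cre:LmnaF/F* replicate 4, the summed markers of cardiac myocytes (5941 CPM) and macrophages (533.7 CPM) were far above the other 3 libraries, as was *Plin4* (56.58 CPM). Its endothelial sum (645.5 CPM) was above the 473.5 to 497.9 CPM of those 3 but within the WT range, 599.3 to 841 CPM. *Pdgfra-Cre:LmnaF/F* replicate 1 had a high sum of erythroid markers (665.7 CPM), a high *Agpat1* (68.68 CPM) and a low *Hsd17b11* (77.99 CPM). *Lmf1* was high in WT replicate 2 (51.83 CPM) and low in *Pdgfra-Cre:LmnaF/F* replicate 3 (16.35 CPM), and *Acacb* was low in WT replicate 3 (10.23 CPM).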

How the results depend on the processing

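The counts of DEGs depended on the test. In place of 53 DEGs, DESeq2 gave 309, limma-voom 126, edgeR without a filter 274, 1 RUVr factor 85 and Y-linked expression as a covariate 112, and leaving out 1 library gave 13 to 76. Of the 10 genes, 1 passed (*Dgat2*) with DESeq2, without a filter and with the Y-linked covariate, and 0 passed in the other 15 alternatives, each library left out among them. One of these 15, the filter of 10 counts in every library, removed *Dgat2* and *Pparg* before the test, so neither was tested there. Of the related genes 8 passed with DESeq2, 2 with limma-voom (*Egr2* and *Pi16*), 12 without a filter and 8 with the Y-linked covariate, and 0 to 2 with 1 library left out, 0 without WT replicate 4 and 2 without *Pdgfra-Cre:LmnaF/F* replicate 1 or 4. The covariate and the joint removal of WT replicate 2 and *Pdgfra-Cre:LmnaF/F* replicate 4 were chosen after seeing the data. The sign was not stable for 3 genes near 0. *Cebpa* turned to 0.0068 with at least 10 counts in every library, 0.0011 with the covariate and 0.11 without those 2 libraries, and ranged from -0.18 to 0.068 with 1 library left out. *Cebpb* ranged from -0.21 to 0.46 and *Cd36* from -0.026 to 0.48, and *Cd36* was at -0.13 without the 2 libraries. The other 7 genes kept their direction in each alternative that gave a value. With 1 library left out, the *Dgat1* to *Dgat2* log2 ratio differed by -2.73 to -1.94, and its exact p was 0.0571 without any 1 of the WT libraries and 0.0286 without any 1 of the others. Same-numbered libraries did not deviate together (r from -0.03 to 0.04 across genes, 4 pairs). This cannot show whether they came from littermates or were handled together, and the labels do not say. With the replicate block there were 36 DEGs, 0 of the 10 genes passed, and the ratio differed by -2.29 with an exact p of 0.125, the smallest that 4 pairs allow. Depth limits *Pparg* and *Dgat2* most, with 6 and 3 counts in WT replicate 2. The causes were not tested.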

Other observations

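A few genes had their highest level in the same library as *Cebpd*, and they were chosen after their values were seen. *Tsc22d3* had 3066 CPM in *Pdgfra-Cre:LmnaF/F* replicate 4 and 265 to 928 CPM in the other 7 libraries, *Fkbp5* had 343 CPM against 25.8 to 166 CPM, and *Per1* had 381 CPM against 50.01 to 269 CPM. *Klf15*, a factor of fat cell formation and of fasting metabolism, had 517 CPM there and 17.1 to 117 CPM elsewhere. Across the genotypes, the edgeR adjusted p of these 4 genes was 0.489, 0.576, 0.404 and 0.304.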
